A study of Saccharomyces cerevisiae with 4 samples.

Results

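The genes described here set or read the mating type of a budding yeast cell: the a1 entry HMRA1, the haploid genes RME1, NEJ1, HO, AXL1 and RDH54, and the silencing genes SIR1, SIR2, SIR3 and SIR4. They were taken by systematic identifier, 10 of the 6679 identifiers in the authors' deposited table. The series compared poly(A) RNA of Saccharomyces cerevisiae strain SK1, labelled WT and growing exponentially in YPD at 30 °C, with and without high levels of spliced HAC1 mRNA driven from outside. The inducer group held 1 library given 20 nM and 1 given 40 nM of the compound bEST (so named in the labels, with no fuller name), and the vehicle group held 2 libraries given ethanol in the volumes that match those doses. The labels give neither the construct that responds to bEST nor the ploidy or mating type of the strain, and do not state whether the libraries were grown separately. The spread behind each p-value is therefore that between these 4 libraries and may be technical in part.

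In an a/alpha diploid, the a1 and alpha2 proteins form a heterodimer that binds operators upstream of haploid-specific genes and represses them with the Tup1-Cyc8 corepressor. In haploids the SIR proteins keep the spare mating type copies at HML and HMR silent, so that a cell expresses the genes of its MAT locus alone. Loss of either arm changes which of these genes a cell transcribes, and with them the choice between mating and meiosis.

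Matches to the operator of the heterodimer are shown first, because they show which of these genes carry a fixed form of its letters upstream. The letters ATGTNNNNNNNNACATCA, an alpha2 part and an a1 part separated by 8 free bases, were searched on both strands of the R64 reference (RefSeq, strain S288C). SK1 sequence may differ. Each line below reads 5′ to 3′ along the strand of the match, with the 6 bases either side, and capitals mark the fixed letters.
NEJ1: aaatccATGTaaaaaaatACATCAatcata
RME1: agtgagATGTcacagattACATCAaaaggt
HO, far site: tctttcATGTattcattcACATCAttttcg
HO, middle site: aaaatcATGTtattatttACATCAacatat
HO, near site: catgtcATGTccacattaACATCAttgcag
SIR3: taaagaATGTtcctcagtACATCAcagtgt
GPA1: ctcagcATGTtaaaaagcACATCAatttag
MATALPHA1 and MATALPHA2: ttcccaATGTagaaaagtACATCAtatgaa

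Coordinates span each printed line, with the 6 bases either side, while distances are those of the match alone. The NEJ1 match lay at chrXII:675582-675611 on the plus strand, 133 to 150 bases before the start codon. It was the only member's match within the 300 bases that run from 250 before to 50 after the start codon. The RME1 match was at chrVII:584273-584302 on the minus strand, 387 to 404 bases upstream. HO held 3, at chrIV:48757-48786 on the plus strand and at chrIV:48430-48459 and chrIV:48390-48419 on the minus strand, between 365 and 749 bases upstream. The SIR3 match at chrXII:1022944-1022973 on the plus strand lay 699 to 716 bases upstream. Of the genes that are not members, GPA1 held one at chrVIII:115250-115279 on the minus strand, and the divergent MATALPHA1 and MATALPHA2 genes share the one at chrIII:200321-200350 on the plus strand. Within 1000 bases upstream, 4 of the 10 members held the full letters (RME1, NEJ1, HO and SIR3), against 38 of 6026 annotated genes (0.631%). In the 300-base window 1 member did, against 7 of 6026 (0.116%). The 1000-base window was chosen after seeing the data. The haploid members were listed as haploid-specific genes, so these shares are a description and no test. The shorter form TGTNNNNNNNNACATC, which every full match also contains, was found upstream of 6 members within 1000 bases and of 225 of 6026 genes (3.73%). One of its 2 RME1 matches lies on the opposite strand and overlaps the full match. No match in these windows was found for AXL1, RDH54, SIR1 or SIR2. These matches describe letters in the reference and say nothing of binding. Other forms of the operator were not searched, so a gene without a match may still hold one.

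Values are taken as RPKM, a unit inferred from the deposited numbers: reads scaled to coding length and library depth, a scale on which levels can be compared between genes. HAC1, the driven gene, stood at 5922 and 3712 RPKM with inducer, against 487 and 528 RPKM with vehicle, a log2 fold change of 3.21 (SE 0.26). Depths worked back from the values were 1183000 and 4161000 reads for the 20 and 40 nM inducer libraries, against 2133000 and 2599000 for their vehicles, so the 20 nM inducer library was the shallowest, at a median of 52 reads per gene. Log2 fold changes are of inducer over vehicle, on log2(RPKM + 1), which understates changes of low genes, and limma was run over the 5317 genes that averaged 5 RPKM or more, with p-values adjusted by Benjamini-Hochberg and a threshold of 0.05. An exact permutation test of 2 against 2 libraries cannot go below p = 0.333. In bulk RNA, fewer cells of a type and less RNA per cell cannot be told apart.

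Of the 10 members 8 passed the filter on low values, and none of the 8 was called higher or lower, where 132 of the 5317 genes (2.48%) were called higher and 39 (0.733%) lower, 3.22% in either direction. At an unadjusted p under 0.05 there were 3 of 8 (HMRA1, NEJ1 and RDH54), against 16.3% of all genes tested. A second fit, limma-voom on the recovered reads, called 1 member higher, NEJ1, where 230 of 5178 genes (4.44%) were. NEJ1 reached the filter of 5 RPKM only through its inducer libraries, so the counts that include it carry that limit. Both inducer libraries lay above both vehicle libraries for 4 of the 8 (NEJ1, RDH54, SIR1 and SIR4), against 23.0% of all genes tested, and below both for 1 (HMRA1), against 23.9%. In either direction the groups of 5 of the 8 did not overlap, against 46.9%. The a1 entry had the lowest fold change of the 10, and the haploid genes NEJ1 and AXL1 the highest.

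**Figure D1:**
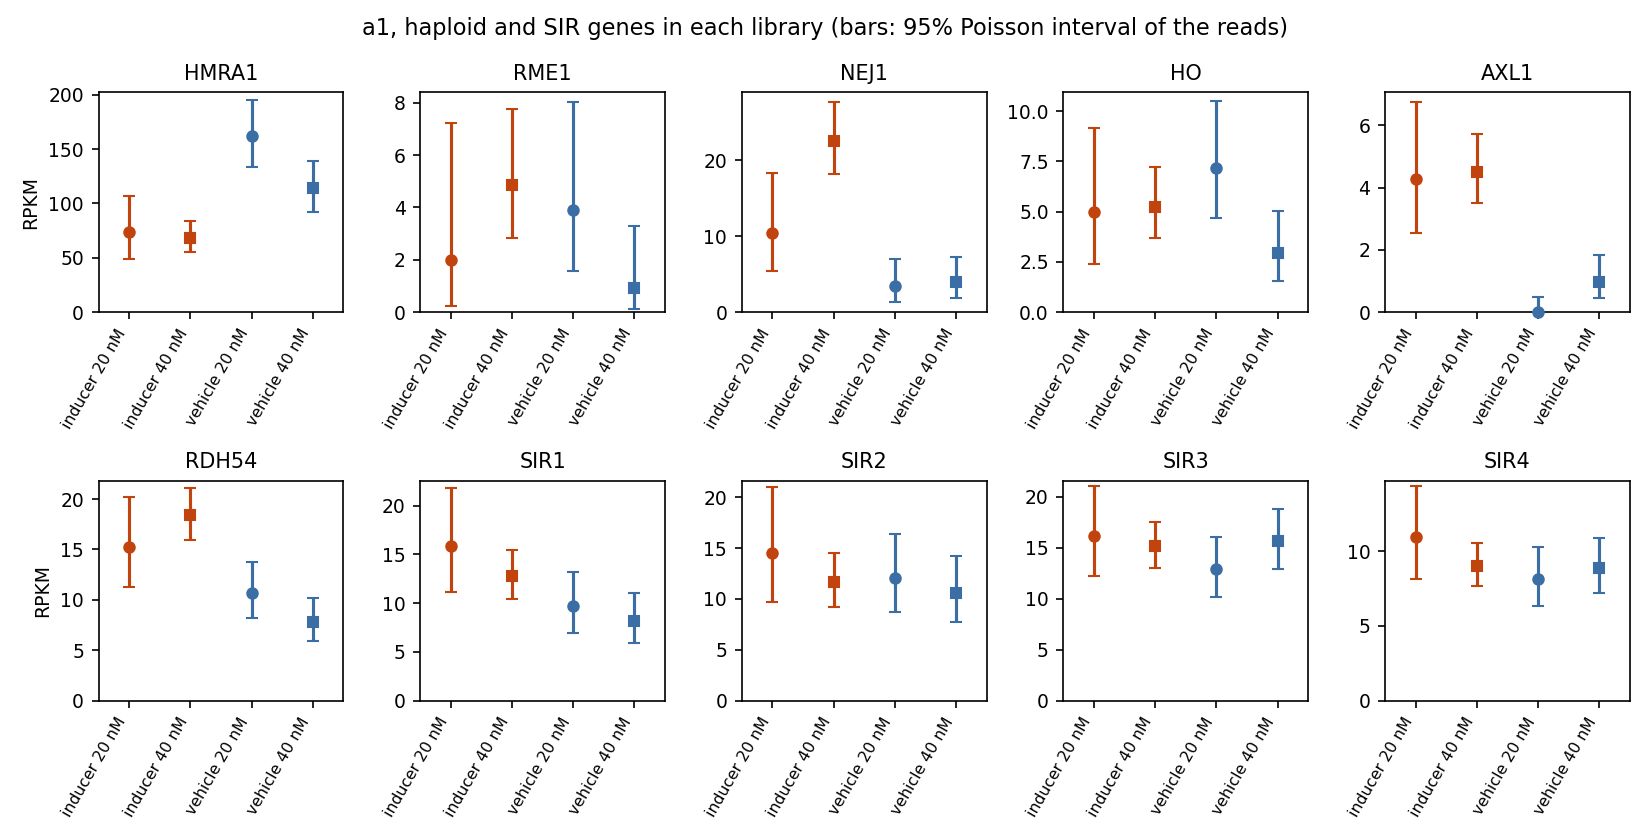
Level of each of the 10 genes in each library, in RPKM on a linear axis that starts at 0 and differs between panels; circles are 20 nM, squares are 40 nM, orange is inducer, blue is vehicle, and bars are 95% Poisson intervals of the reads. HMRA1 lies at 73.7 and 68.1 RPKM with inducer, against 162 and 114 RPKM with vehicle, while AXL1 and NEJ1 lie above their vehicles in both inducer libraries.

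HMRA1 (YCR097W, chromosome III) encodes a1, the a-cell member of the heterodimer. It had 73.7 and 68.1 RPKM with 20 and 40 nM inducer, from 28 and 91 reads, against 162 and 114 RPKM in the matched vehicle libraries, from 111 and 95 reads. Both inducer libraries were low and close together, and the groups did not overlap. The means were 70.9 ± 3.95 RPKM with inducer and 138 ± 34.1 RPKM with vehicle (SD, n = 2 each), a log2 fold change of −0.93 (SE 0.25, 95% interval −1.53 to −0.33) that did not pass (limma, adjusted p = 0.113). Without the 20 nM vehicle library, the highest of the 4, it was −0.68 (adjusted p = 0.887). At 20 nM the level was 0.455 of the vehicle's (95% counting interval 0.289 to 0.694) and at 40 nM 0.598 (0.444 to 0.806), and neither interval included 1. HMRA1 was by far the most abundant of the 10, above 67.0% to 82.3% of all genes in every library.

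Which copy made these reads cannot be told apart. The R64 reference carries alpha information at MAT, so its only a1 copy is the one at HMR, a gene of 3 coding exons. In this gene 0% of 50-base windows recur in the R64 genome. The genome build that the authors aligned to is not given in the sources used here. If it was R64, reads from an expressed a1 at MAT would be counted at HMR. The other cassette entries, HMLALPHA1, HMLALPHA2, MATALPHA1, MATALPHA2 and HMRA2, consist wholly of repeated windows in R64 (100%). They were listed at 0 in every library, except HMLALPHA1 at 3.08 RPKM (6 reads) with 40 nM inducer. How reads with several positions were counted is not given in the sources used here, so levels of the alpha genes, alpha2 among them, could not be read from these rows.

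NEJ1 (YLR265C, chromosome XII), a haploid-specific factor of non-homologous end joining, had 10.5 and 22.6 RPKM with inducer, from 12 and 91 reads, against 3.39 and 3.97 RPKM with vehicle, from 7 and 10 reads. The 40 nM inducer library was the highest and the vehicle libraries were close together. The means were 16.5 RPKM with inducer and 3.68 RPKM with vehicle, so NEJ1 reached the filter of 5 RPKM only through its inducer libraries. The log2 fold change was 1.82 (SE 0.45, 95% interval 0.76 to 2.88), which did not pass in the main test (limma, adjusted p = 0.0873). With limma-voom on the recovered reads it was 2.24 and passed (adjusted p = 0.039), while with the 20 nM inducer library left out it was 2.34 (adjusted p = 0.0501) and with the 40 nM one left out 1.30 (adjusted p = 0.0981). At 20 nM NEJ1 stood at 3.09 times its vehicle (95% counting interval 1.12 to 9.27) and at 40 nM at 5.68 times (2.95 to 12.25).

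AXL1 (YPR122W, chromosome XVI) encodes a protease that trims the a-factor precursor and marks the axial bud site of haploids. It had 4.26 and 4.51 RPKM with inducer, from 18 and 67 reads, against 0 and 0.971 RPKM with vehicle, from 0 and 9 reads. With a mean of 2.44 RPKM it fell under the filter and was not tested, although both inducer libraries lay above both vehicle libraries. At 20 nM the ratio was 10.8 against a floor of 3 reads in the vehicle library, and the lower 95% counting limit of the ratio, with the error of both libraries, was 7.93. At 40 nM AXL1 was 4.65-fold higher (95% counting interval 2.31 to 10.6). Its log2 fold change was 1.94 with a pseudocount of 1, 3.78 with 0.1 and 0.78 with 5.

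RDH54 (YBR073W, chromosome II), a Rad54-related translocase of recombination, had 15.3 and 18.4 RPKM with inducer, against 10.7 and 7.79 RPKM with vehicle. The groups did not overlap, and the 40 nM pair lay further apart than the 20 nM pair. The log2 fold change was 0.81 (SE 0.31, 95% interval 0.08 to 1.54) and did not pass (limma, adjusted p = 0.253). RDH54 stood at 2.36 times its vehicle at 40 nM (95% counting interval 1.75 to 3.24), from 208 reads with inducer and 55 with vehicle, and at 1.43 times at 20 nM (0.959 to 2.11).

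RME1 and HO showed no common direction between doses. RME1 (YGR044C, chromosome VII), the zinc-finger repressor of the meiotic activator IME1, had 2.01 and 4.85 RPKM with inducer, against 3.89 and 0.913 RPKM with vehicle. These rest on 2 and 17 reads with inducer, against 7 and 2 with vehicle, and with a mean of 2.91 RPKM the gene was not tested. HO (YDL227C, chromosome IV), the endonuclease that starts mating type switching, had 4.97 and 5.23 RPKM with inducer, against 7.17 and 2.94 RPKM with vehicle. The inducer libraries lay between the vehicle libraries, with a log2 fold change of 0.10 (SE 0.52, 95% interval −1.14 to 1.34; limma, adjusted p = 0.952). That interval reaches beyond 1 on the log2 scale on both sides, so a difference of that size in HO could not be told from the spread between libraries.

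**Figure D2:**
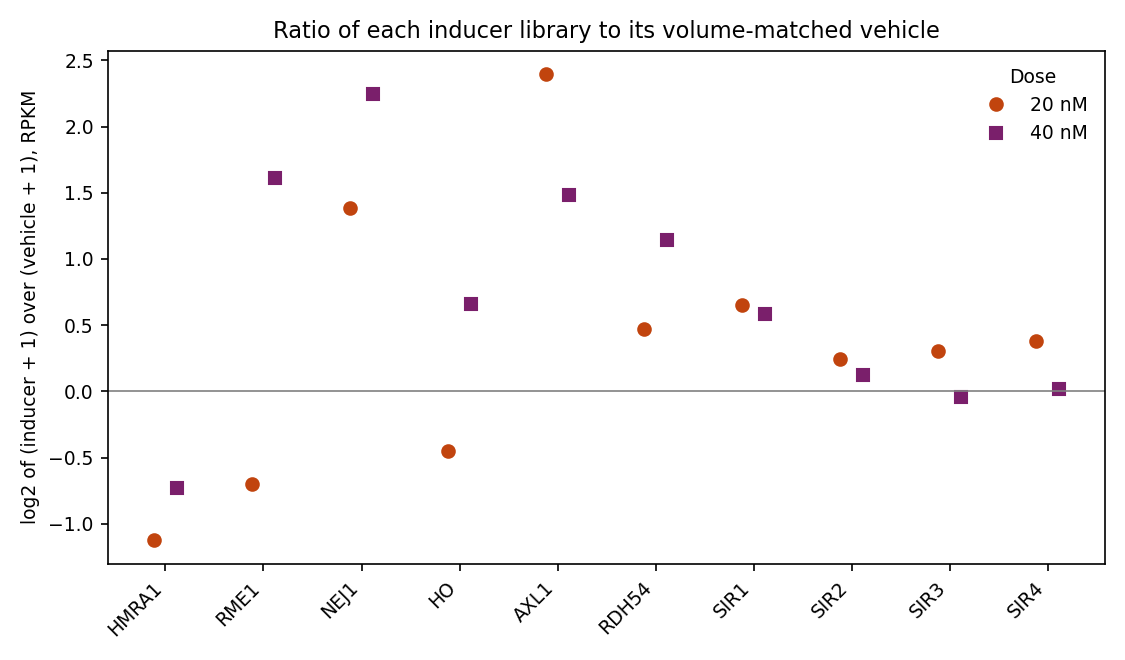
Log2 ratio of the inducer library to the vehicle library of the same labelled dose, on log2(RPKM + 1), for each of the 10 genes; circles are the 20 nM pair and squares the 40 nM pair, 1 library against 1. HMRA1 is below 0 at both doses (−1.13 and −0.73), NEJ1, AXL1, RDH54, SIR1, SIR2 and SIR4 are above 0 at both, and RME1, HO and SIR3 change sign between the doses.

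Over the 5 haploid genes the median log2 fold change was 0.81, with RME1 and AXL1 under the filter included, beside −0.02 over all genes tested. Summed, the 5 haploid genes made 37.0 and 55.6 RPKM with inducer, against 25.2 and 16.6 RPKM with vehicle. The level of a1 was 2.0 and 1.23 times this sum with inducer, against 6.45 and 6.86 times with vehicle.

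Other genes that a1-alpha2 represses in diploids include the pheromone-response genes. Among these 5 of 8 rose, against 2.48% of all genes tested, and none fell. They were FAR1, a cell cycle inhibitor, with a log2 fold change of 3.30 (SE 0.37), STE18 and GPA1, the gamma and alpha subunits of the pheromone G protein, with 3.002 (SE 0.24) and 2.78 (SE 0.28), the kinase gene FUS3 with 2.72 (SE 0.33), and SST2, which turns the G protein off, with 1.77 (SE 0.29). STE18 had 58.8 and 66.9 RPKM with inducer, against 6.87 and 7.05 RPKM with vehicle. Its reads were 19 and 76 with inducer, against 4 and 5 with vehicle. The G protein beta subunit gene STE4 (1.46), the scaffold gene STE5 (0.96) and the transcription factor gene STE12 (0.67) did not pass. With limma-voom on the recovered reads 6 of the 8 passed. FAR1 reached the filter of 5 RPKM only through its inducer libraries (mean 33.1 RPKM, against 2.53 RPKM with vehicle). The counts that include FAR1 carry that limit. In all 8 both inducer libraries lay above both vehicle libraries, against 23.0% of all genes tested. The median log2 fold change was 2.24, against 0.81 for the 5 haploid genes described above. Without the 20 nM inducer library 3 of the 8 passed, FUS3 (adjusted p = 0.0613) and SST2 (adjusted p = 0.0593) no longer doing so. Of these genes GPA1 alone held the full operator letters within 1000 bases, and STE5 held the shorter form only.

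Markers of the mating types and of meiosis were read beside these genes, in the fit that called 2.48% of all genes tested higher. Of 7 a-cell markers 6 rose (4 without the 20 nM inducer library), and their summed level was 2011 and 3157 RPKM with inducer, against 791 and 425 RPKM with vehicle. Of 5 alpha-cell markers 4 rose (3 without that library), with sums of 837 and 481 RPKM with inducer, against 47.7 and 37.2 RPKM with vehicle. The a-cell sum is mostly MFA1, at 1558 and 2695 RPKM with inducer, against 745 and 370 RPKM with vehicle. The MFA1 reads were 94 and 572 with inducer, against 81 and 49 with vehicle. With 40 nM inducer STE2 had 353 reads at 68.6 RPKM, so a sum in RPKM weighs short genes such as MFA1 heavily. No a-cell or alpha-cell marker was at 0 in any library. The markers STE6, ASG7 and MF(ALPHA)1 reached the filter of 5 RPKM only through their inducer libraries. Their means with vehicle were 2.94, 3.14 and 1.41 RPKM, and the counts of risen markers carry that limit. With a pseudocount of 0.1, 4 of the 7 a-cell and 4 of the 5 alpha-cell markers rose. Of 10 meiosis markers 2 passed the filter and 1 rose, the chromosome axis gene HOP1. HOP1 had 13.5 and 12.2 RPKM with inducer, against 0.267 and 0.438 RPKM with vehicle. Its reads were 28 and 89 with inducer, against 1 and 2 with vehicle. It did not pass without the 20 nM inducer library (adjusted p = 0.0759). SPS4, the other marker tested, had 11.5 and 9.04 RPKM with inducer, against 1.96 and 2.81 RPKM with vehicle (limma, adjusted p = 0.0986). Both HOP1 and SPS4 reached the filter of 5 RPKM only through their inducer libraries. The count of 1 in 2 is therefore no measure of the 10 markers, and with a pseudocount of 0.1 it was 0 in 2. The 10 meiosis markers summed to 38.1 and 42.2 RPKM with inducer, against 16.8 and 16.3 RPKM with vehicle, and the 8 below the filter to 13.2 and 21.0 RPKM with inducer, against 14.5 and 13.1 RPKM with vehicle. Of these 8, SSP1 (−0.77), ZIP1 (−0.22) and NDT80 (−0.19) had log2 fold changes below 0. SPS1 (1.60), IME2 (0.85), REC8 (0.50), SPO11 (0.37) and DMC1 (0.14) had log2 fold changes above 0. Both inducer libraries lay above both vehicle libraries for SPS1 and IME2, and below both for SSP1. The SPS1 reads were 4 and 21 with inducer, against 1 and 1 with vehicle. The meiotic factor NDT80 was at 0 in the 20 nM inducer library, and SPO11, which makes meiotic breaks, in the 20 nM vehicle library. What part a mixture of cell types has in the values of the 10 genes was not tested.

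None of the 4 SIR genes was called, where 3.22% of all genes tested were. At an unadjusted p under 0.05 there were 0 of 4, against 16.3% of all genes tested. SIR1 (YKR101W, chromosome XI), which binds the origin recognition complex at the silencers, had 15.8 and 12.8 RPKM with inducer, against 9.72 and 8.17 RPKM with vehicle. Its inducer libraries lay above its vehicle libraries, with a log2 fold change of 0.62 (SE 0.31, 95% interval −0.11 to 1.34; limma, adjusted p = 0.382). The ratios at the 2 doses were alike, 1.63 (95% counting interval 1.01 to 2.60) at 20 nM and 1.56 (1.08 to 2.29) at 40 nM.

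SIR2 (YDL042C, chromosome IV), the histone deacetylase of the complex, had 14.5 and 11.7 RPKM with inducer, against 12.1 and 10.6 RPKM with vehicle. Its groups overlapped, with a log2 fold change of 0.18 (SE 0.30, 95% interval −0.52 to 0.88; limma, adjusted p = 0.818). SIR3 (YLR442C, chromosome XII), which binds deacetylated nucleosomes, had 16.2 and 15.1 RPKM with inducer, against 12.9 and 15.6 RPKM with vehicle. Those groups overlapped too, with a log2 fold change of 0.13 (SE 0.27, 95% interval −0.51 to 0.77; limma, adjusted p = 0.862). SIR4 (YDR227W, chromosome IV), the scaffold of the complex, had 10.9 and 9.03 RPKM with inducer, against 8.17 and 8.91 RPKM with vehicle. Its inducer libraries were above its vehicle libraries, the 40 nM pair by 0.02 on the log2 scale, and the log2 fold change was 0.20 (SE 0.33, 95% interval −0.58 to 0.98; limma, adjusted p = 0.821). The median over the 4 was 0.19, beside −0.02 over all genes tested. These intervals leave room for differences in either direction.

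**Figure D3:**
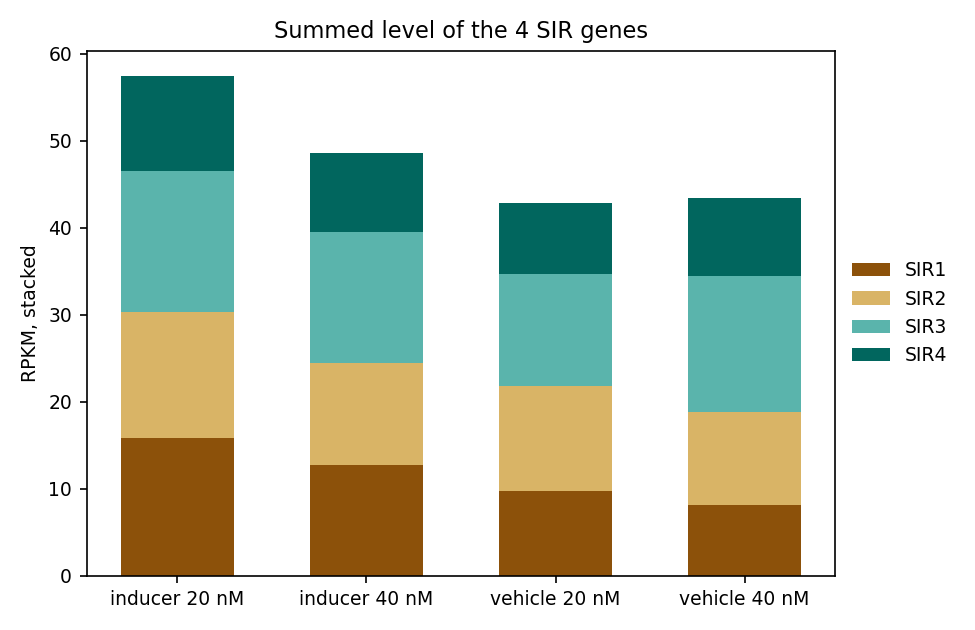
Levels of SIR1, SIR2, SIR3 and SIR4 stacked in each library, in RPKM on a linear axis from 0. The sums are 57.4 and 48.6 RPKM in the inducer libraries and 42.9 and 43.4 RPKM in the vehicle libraries, and the SIR1 segment is the one that differs most between the groups.

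The 4 SIR transcripts were of like abundance. The highest was 1.48 and 1.67 times the lowest with inducer, against 1.58 and 1.91 times with vehicle. SIR3 was the highest in all 4 libraries. In both inducer libraries the order was SIR3, SIR1, SIR2 and SIR4. With vehicle the order was SIR3, SIR2, SIR1 and SIR4 at 20 nM, and SIR3, SIR2, SIR4 and SIR1 at 40 nM. Whether neighbours in these orders differ beyond counting error was not tested. With 40 nM inducer the 95% counting intervals of neighbours overlapped. They were 13.0 to 17.5 RPKM for SIR3, 10.4 to 15.5 for SIR1 and 9.23 to 14.5 for SIR2. SIR1 made up 27.5% and 26.3% of the SIR sum with inducer, against 22.7% and 18.9% with vehicle.

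Of 23 genes that work with or beside the SIR proteins in silencing, none was called, with a median log2 fold change of 0.11. At an unadjusted p under 0.05 there were 2 of the 23, against 16.3% of all genes tested. The 2 furthest from 0 were ESC1, which anchors silent chromatin at the nuclear periphery, at 1.00 (adjusted p = 0.225), and CAC2, a subunit of chromatin assembly factor, at 0.92 (adjusted p = 0.074). CAC2 had 51.5 and 51.2 RPKM with inducer, against 27.2 and 26.3 RPKM with vehicle. With limma-voom on the recovered reads both passed, ESC1 at 1.08 (adjusted p = 0.0432) and CAC2 at 0.94 (adjusted p = 0.0448). With the 40 nM inducer library left out, 3 of the 23 were called higher: CAC2 (adjusted p = 0.0428), SUM1 (adjusted p = 0.0416) and NET1 (adjusted p = 0.0472). None of the 4 sirtuin paralogs was called (0 of 4 at an unadjusted p under 0.05), the furthest from 0 being HST1 (−0.11) and HST4 (0.09). The telomere-proximal gene YFR057W, used as a readout of SIR silencing, had 23.5 and 33.4 RPKM with inducer, against 29.6 and 32.1 RPKM with vehicle, and its groups overlapped.

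The 3 outermost protein-coding genes of each chromosome end, where SIR proteins also act, comprised 96 genes, of which 93 were in the table and 17 passed the filter. None was called (3 of 17 at an unadjusted p under 0.05, against 16.3% of all genes tested). Among the 17, inducer libraries lay above vehicle libraries for 1 gene and below for 6, against 23.0% and 23.9% of all genes tested, and the median log2 fold change was −0.30. The 2 furthest from 0 were YML131W, at −1.18 with 18.7 and 64.4 RPKM with inducer, against 115 and 56.3 RPKM with vehicle, and COS12, at −0.84 with 21.1 and 20.6 RPKM with inducer, against 42.0 and 34.5 RPKM with vehicle. YML131W was called lower without the 40 nM vehicle library (adjusted p = 0.011), and YML131W (adjusted p = 0.0496) and COS7 (adjusted p = 0.0457) without the 40 nM inducer library. Of the 93, 60 and 55 were listed at 0 with inducer, against 57 and 61 with vehicle. Of these zeros, 50 and 47 with inducer, against 49 and 52 with vehicle, were genes with repeated sequence in 50% or more of their 50-base windows. As for the cassettes, zeros of such genes cannot be read as a lack of RNA. Of the 17, COS7, COS5, YAR066W, YAR068W, SOR1, VTH1 and YLL066C are such genes too. Their levels depend on how reads with several positions were counted, and so do the counts and median of the 17.

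Partners of each haploid gene were read in the same fit. Of all genes tested it called 3.22%, and 16.3% had an unadjusted p under 0.05. Of the SIR genes, the sirtuin paralogs, the chromosome-end genes and the partner lists in which no gene was called, limma-voom on the recovered reads called none either. Of the end-joining partners of NEJ1, 7 of 8 passed the filter and none was called (1 at an unadjusted p under 0.05). LIF1, whose product binds both NEJ1 and DNA ligase IV, had 14.8 and 10.6 RPKM with inducer, against 5.07 and 4.80 RPKM with vehicle, a log2 fold change of 1.19 (adjusted p = 0.161). LIF1 reached the filter of 5 RPKM only through its inducer libraries. YKU70, of the end-binding Ku complex, stood at −0.23, and the median of the 7 was −0.04. Of 6 recombination partners of RDH54 none was called (0 at an unadjusted p under 0.05), with RAD55 at 0.82 and RAD54 at 0.31. Of 10 axial and bipolar budding genes beside AXL1, 9 were tested and none called (0 at an unadjusted p under 0.05). The furthest from 0 were the bipolar budding gene BUD9 at −0.52 and the Ras-like GTPase gene RSR1 at −0.49. With the 40 nM inducer library left out RSR1 passed, at −0.93 (adjusted p = 0.0377).

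In the a-factor pathway, in which AXL1 acts, 3 of 9 genes tested rose, against 2.48% of all genes tested, and none fell. They were MFA2 and MFA1, which encode the a-factor precursor, and STE6, its exporter. MFA2 had 222 and 240 RPKM with inducer, against 16.5 and 20.3 RPKM with vehicle (log2 fold change 3.59). Its reads were few, 15 and 57 with inducer, against 2 and 3 with vehicle. STE6 had 17.1 and 14.1 RPKM with inducer, against 3.57 and 2.32 RPKM with vehicle (2.08). It reached the filter of 5 RPKM only through its inducer libraries. MFA1 had 1558 and 2695 RPKM with inducer, against 745 and 370 RPKM with vehicle (1.96), from 94 and 572 reads against 81 and 49. Without the 20 nM inducer library 1 of the 9 passed, MFA2. STE6 also failed without the 40 nM vehicle library (adjusted p = 0.0815), and MFA1 without the 40 nM inducer library (adjusted p = 0.0773). With a pseudocount of 0.1, 1 of the 9 passed, and STE6 did not (limma, adjusted p = 0.0504). STE23, the relative of AXL1, and the processing enzymes RAM1, RAM2, STE24, RCE1 and STE14 did not pass in the main fit. STE24 stood at 0.64, and at 0.74 without the 40 nM inducer library.

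Of 8 regulators of HO none was called (0 at an unadjusted p under 0.05), with a median of 0.24. SWI5, the zinc-finger activator that switches HO on, stood at 0.37. Of 4 genes tied to RME1 none was called (0 at an unadjusted p under 0.05). IME1, which RME1 represses, had 5.78 and 4.46 RPKM with inducer, against 5.50 and 5.27 RPKM with vehicle. The G1 cyclin gene CLN2, which RME1 activates, stood at 0.32, and the mediator subunit gene SIN4 at 0.29. The corepressor genes CYC8 (0.63) and TUP1 (0.42) and the alpha2 partner gene MCM1 (0.22) were likewise not called (0 of 3 at an unadjusted p under 0.05). Without the 40 nM inducer library CYC8 passed (1.32, adjusted p = 0.0363).

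**Figure D4:**
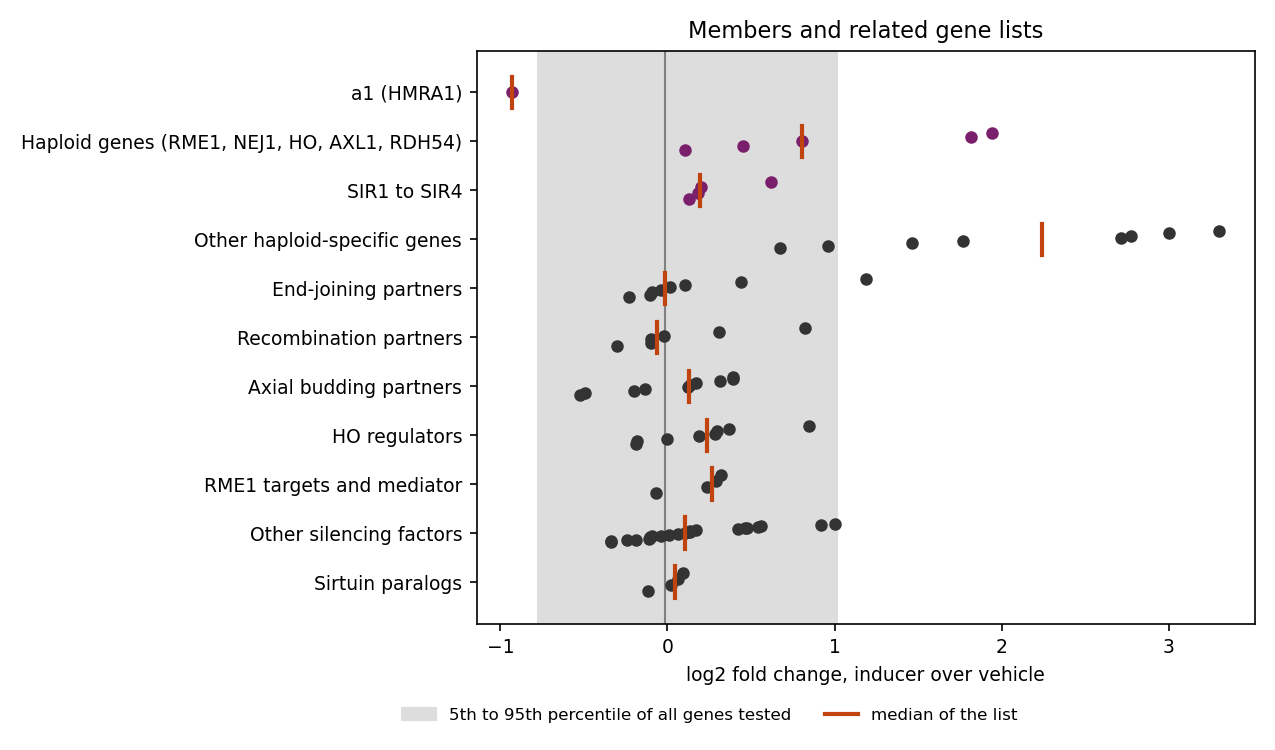
Log2 fold change, inducer over vehicle, of the 10 genes (purple) and of genes in related lists (black), filtered genes included; orange bars are list medians, the grey band is the 5th to 95th percentile of all genes tested (−0.78 to 1.02), and the grey line is their median. Points are spread vertically only to separate them. HMRA1 lies left of the band, NEJ1, AXL1 and most other haploid-specific genes lie right of it, and the SIR genes and other silencing factors lie within it.

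Likeness of pattern was measured as the root mean square distance between log2(RPKM + 1) values centred on each gene's mean, over the 4 libraries and among genes above the filter. The 3 genes nearest to HMRA1 were CBP4 (0.0901), COS12 (0.0975) and SDS3 (0.113). CBP4 had 33.6 and 34.5 RPKM with inducer, against 69.3 and 51.8 RPKM with vehicle. The 3 nearest to RME1 were SOR1 (0.0863), TMT1 (0.0900) and GAP1 (0.110). With 4 libraries many genes can lie this close, and the distances are a description.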

How the data were processed

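Poly(A) RNA of 4 libraries, in 2 groups of 2, was read as directional single-end libraries, per the labels' protocols. The authors deposited 1 table of normalised values with no unit in its header. They were taken as RPKM, since the deposited values times coding length less 60 bases gave whole read numbers after division by a constant per library (92.8% to 93.7% of values of up to 50 reads within 0.05 of a whole number). RDH54 and SIR1 reads came out whole at coding lengths of 2775 and 2037 bases, where R64 has 2877 and 1965. STAR and SAMtools are named in the submitters' processing notes; for the counting tool, strand setting and genome build, nothing is given in the sources used here. Without molecular identifiers, the 95% Poisson intervals and the floor of 3 reads cover counting error only.

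Log2(RPKM + 1) values were fitted with limma 3.58.1 in R 4.3.3 (variance trend, mean of at least 5 RPKM, inducer against vehicle, Benjamini-Hochberg over all genes tested), tested first on simulated data. Symbols, promoters and repeated windows came from the R64 annotation by identifier (5994 of 6679 matched). The members and lists were chosen with earlier results of these data known. All members were named, with every called gene of a pathway list up to 6 (marker lists are given by counts and sums), or otherwise the 2 furthest from 0; IME1, MCM1 and the listed genes given as not passing were added after values were seen, and 1 gene that the rule names is not reported here. Alternatives were other pseudocounts, filters and scalings, no trend, dose as a block, each library left out, and limma-voom on recovered reads.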

Additional observations from a re-analysis of the deposited data

Results flagged for a closer look

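For 3 of the 10 genes the ratio to the matched vehicle pointed one way at 20 nM and the other at 40 nM. With 1 library per dose and treatment the difference was not tested, and 43.2% of all genes tested showed such opposite signs. The RME1 log2 ratio was −0.70 at 20 nM and 1.61 at 40 nM. The HO log2 ratio was −0.45 at 20 nM and 0.66 at 40 nM. The SIR3 log2 ratio was 0.31 at 20 nM and −0.0464 at 40 nM. The RME1 ratio at 40 nM rests on 17 reads with inducer and 2 with vehicle (5.31-fold, 95% counting interval 1.26 to 47.4), and its ratio at 20 nM on 2 reads with inducer and 7 with vehicle (0.515-fold, 0.0522 to 2.71). For HO both counting intervals include no difference (0.298 to 1.49 at 20 nM and 0.924 to 3.65 at 40 nM).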

How the results depend on the processing

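The members had 0 to 208 reads in each library, and what depth limits was not tested apart from the spread between 2 libraries a group. The counts of genes called higher (132) and lower (39) became 0 and 0 with no filter on low values. They were 230 and 77 with limma-voom on recovered reads, which called 1 member higher (NEJ1). Genes called lower numbered 65 with libraries scaled to one median and 25 with no trend of variance. With any 1 library left out, 113 to 333 genes were called higher and 32 to 460 lower, the highest of both without the 40 nM inducer library, and no member was called. The medians were then 0.60 to 1.13 for the haploid genes and 0.08 to 0.33 for the SIR genes.

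Dose as a replicate block gave 243 genes higher and 123 lower, with 1 member called higher, NEJ1 (adjusted p = 0.00377), and changed no other member's call. It called 1 chromosome-end gene lower, YML131W. The labels tie libraries of the 2 groups by dose and by nothing else they state, and deviations of same-dose libraries from their group means correlated at r = −0.205 over 5317 genes. The crossed pairing, a block chosen after seeing the data, gave 363 higher and 305 lower, with 1 member higher (NEJ1) and 1 lower (HMRA1).

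The 1000-base window, also chosen after seeing the data, gave 4 members with operator letters, against 1 in 300 bases. With any 1 library left out, the fold change of HO was −0.42 to 0.63, reversed without the 40 nM vehicle library, and that of SIR3 −0.0014 to 0.26, reversed without the 20 nM vehicle library. RME1, which was not tested, ranged from −0.22 without the 40 nM vehicle library to 1.13 without the 20 nM one, and was −0.026 without the 40 nM inducer library. The cause was not tested for any of these.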
